A study of Mus musculus with 14 samples.

Results

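The first day after adoptive transfer of cytotoxic T lymphocytes (CTLs) into mice bearing melanomas is described here from 2 of the 14 microarrays of the study, chosen by their labels. The first array held RNA from CTL-treated tumours harvested on day 1, and the other RNA from untreated tumours harvested on day 1. All mice were C57BL/6 mice carrying tumours grown from B16F10, an established mouse melanoma line. The treated mice had received in vitro activated, gp100-specific CD90.1+ CTLs on day 0, which was 9 days after the tumour challenge, and the untreated mice had received no cells. gp100 is a pigment-cell protein encoded by Pmel, and CD90.1 is an allelic form of the T cell surface protein Thy1 that can mark donor cells. The age and sex of the mice are not given in the sources used here.

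The other 12 arrays held CTL-treated and untreated tumours of days 3, 5 and 7, and tumours harvested on the same 3 days from CTL-treated mice that had also been injected with an anti-IFNg antibody or with Rat IgG as its control. They are used below only to place the day 1 values. Each day 1 array carried pooled RNA of 4 tumours, so the pair compares 8 tumours through 2 measurements and the spread between tumours was not measured. No difference between the day 1 arrays therefore has a replicate check, none was tested, and every comparison of the pair is given by its size.

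Each array is a single-colour Agilent mouse array, on which RNA labelled with a fluorescent dye binds DNA probes. A level is the log2 of a probe's processed signal minus the log2 of the 75th percentile of that array, and a difference is the CTL level minus the untreated level. The 75th percentile was 536 signal units on the CTL array and 485 on the untreated array. The scanner software called 55.8% of spots well above background on the CTL array and 53.8% on the untreated array, and no spot was saturated. Both arrays lay on the same slide, and on all 4 slides the CTL array took position 1 and the untreated array position 2, so position and treatment cannot be told apart. The label of the tissue was borne out by pigment-cell genes: the melanosome protein gene Pmel had a level of 8.66 on the CTL array and 8.72 on the untreated array. The levels of Dct, an enzyme of melanin synthesis, were 9.15 and 9.34 on those arrays, and those of the melanosome gene Mlana were 8.35 and 8.44.

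CTLs that recognise their antigen kill target cells with perforin and granzymes and release interferon gamma (IFN gamma). IFN gamma binds its receptor on tumour and host cells and signals through the kinases Jak1 and Jak2 to gamma-activated sites (GAS) in promoters. Early targets such as the transcription factor Irf1 then act on further genes, many through interferon-stimulated response elements (ISRE), which include guanylate binding proteins, immunity-related GTPases, chemokines and the antigen presentation machinery.

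A gene was represented by its brightest probe among those well above background on at least 1 of the 2 arrays, and 15838 genes were measured. Of these, 475 (3.0%) were at least 2-fold higher and 342 (2.16%) at least 2-fold lower in the CTL tumours than in the untreated tumours. These counts take the measured signals of genes well above background on the brighter array. Where the dimmer array was not above background only a lower bound of the fold can be given, and 266 of the 475 and 248 of the 342 were still past 2-fold with that bound in place of the measured fold. The median difference of all genes was 0.00, with quartiles of -0.07 and 0.08. Most of the large differences were in dim genes: the 3960 genes with the lowest mean level over the 14 arrays held 445 of the 475 higher genes and 332 of the 342 lower genes. Of the higher genes, 227 had a probe well above background on only 1 or 2 of the 14 arrays, as did 199 of the lower genes. The CTL day 1 array was the highest of all 14 arrays for 268 of the 475 higher genes (56.4%), against 4.99% of all genes. The untreated day 1 array was the highest of the 14 for 237 of the 342 lower genes (69.3%), against 5.67% of all genes. Both sets were picked for a high signal on that same array, so shares above those of all genes follow in part from the choice.

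**Figure D1:**
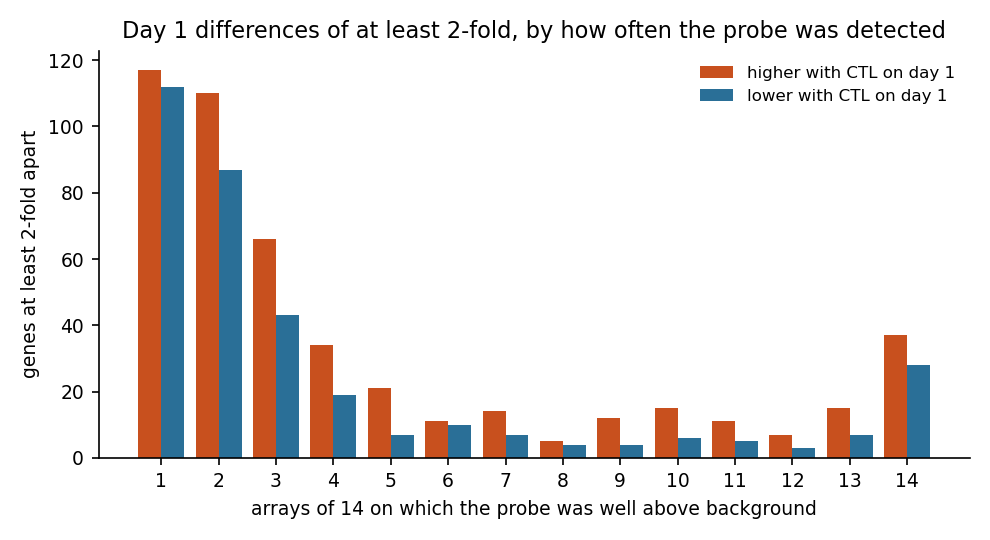
Genes at least 2-fold higher (orange) or lower (blue) in CTL than in untreated tumours on day 1, counted by the number of the 14 arrays on which the gene's probe was well above background. The left-hand bars, probes detected on 1 or 2 arrays, hold 227 higher and 199 lower genes, and the right-hand bars, probes detected on all 14, hold 37 and 28.

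Requiring a probe to be well above background on both day 1 arrays left 14564 genes, of which 64 (0.439%) were at least 2-fold higher and 60 (0.412%) at least 2-fold lower in CTL tumours. Among the 7919 genes whose mean day 1 level lay above the median gene, a restriction chosen after the values were seen, 9 (0.114%) were at least 2-fold higher and 5 (0.0631%) at least 2-fold lower. All 9 belonged to a list of 37 IFN gamma response genes, namely Tgtp1, Gbp2, Iigp1, Igtp, Ifi47, Irgm2, Irf8, Irgm1 and Irf1. Irgm1 and Irf1 lay just past the threshold, with differences of 1.04 and 1.03. Of the 5 lower genes, 4 were red-cell genes, Hba-a1, Hba-a2, Hbb-bt and Alas2, and the other was Trpc2, an ion channel of the vomeronasal organ. Trpc2 had levels of -0.32 on the CTL array and 0.88 on the untreated array. Probes printed in 10 spots give the scale of the scanning error: over the 127 such probes well above background on both arrays, the median SD of the difference between single spots was 0.049 log2 units, with 0.19 for the 32 probes of level below -2, and none of the 127 differed 2-fold. That error holds for spots of 1 array pair and says nothing of the spread between tumours.

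**Figure D2:**
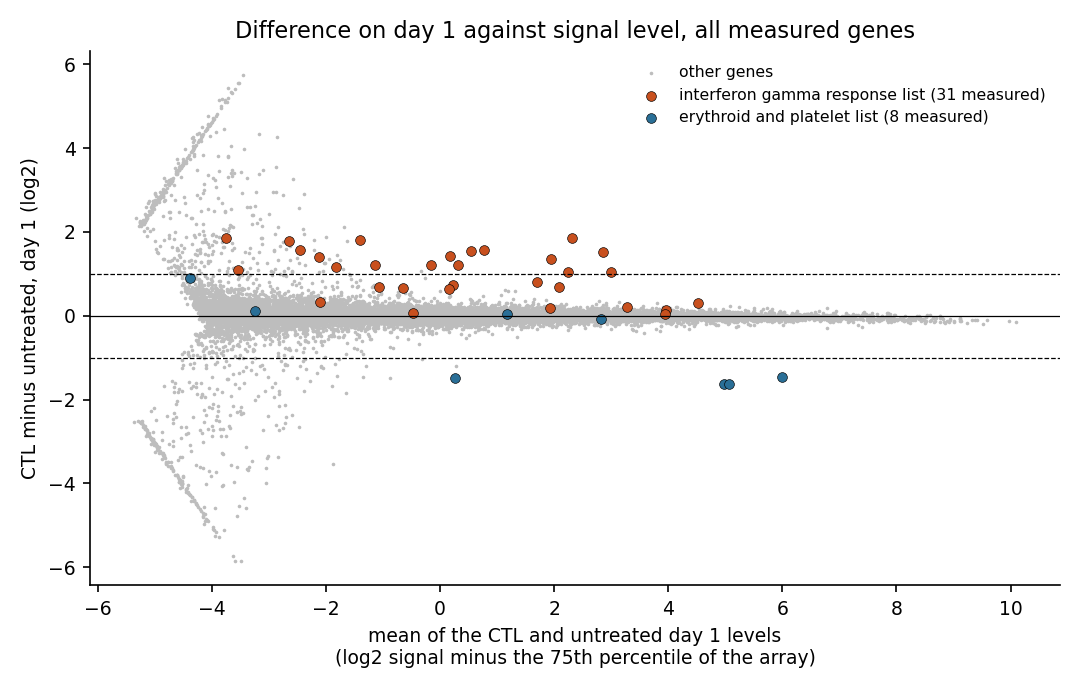
Difference between the CTL and untreated arrays of day 1 (vertical axis, log2) against the mean of both levels (horizontal axis, log2) for the 15838 measured genes, with dashed lines at 2-fold. Among the genes whose mean level lay above the median gene, the points beyond the dashed lines are 9 IFN gamma response genes above (orange), and 4 red-cell genes (blue) and Trpc2 below.

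The IFN gamma response list was the gene group that stood highest. Of its 37 genes, 36 were on the array and 31 were measured, and all 31 had a difference above 0, from 0.03 to 1.85. At least 2-fold higher were 18 of the 31, against 3.0% of all measured genes, and none was at least 2-fold lower. By the difference alone, 24 were at least 1.5-fold higher, a threshold at which no share of all genes is given here. The median difference was 1.08, or 2.12-fold, beside 0.00 over all genes. In 28 of the 31 the CTL day 1 level lay above all 4 untreated arrays of the study, as it did in 14.7% of all genes. It also did so in 8 of 10 measured MHC class II genes, 11 of 18 class I genes and 17 of 27 type I interferon genes. For the macrophage and T cell lists it was 15 of 27 and 6 of 16. In none of the 18 IFN gamma response genes past 2-fold was the CTL day 1 array the highest of the 14. Cxcl11, Nlrc5, Ido1, Nos2, Gbp8 and Upp1 were not among the measured genes.

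**Figure D3:**
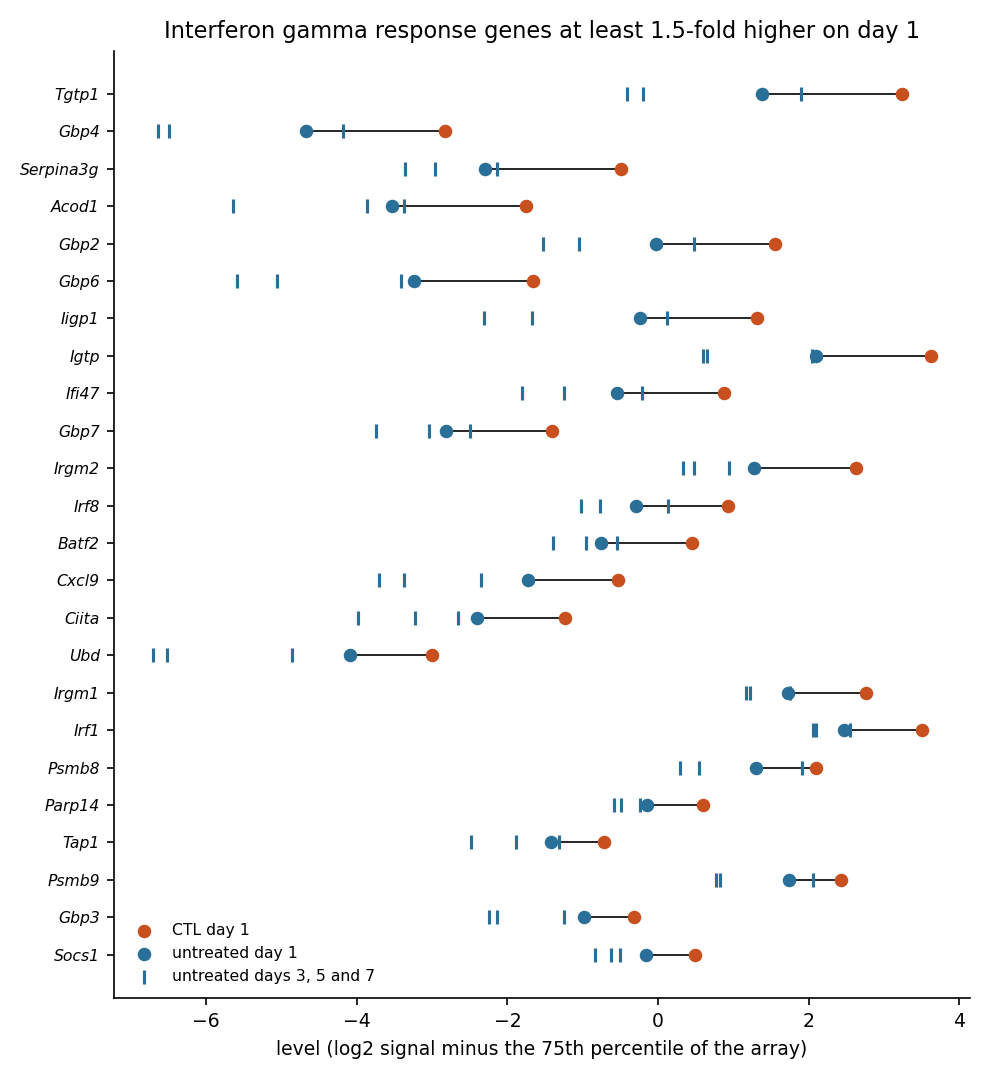
Levels of the 24 IFN gamma response genes at least 1.5-fold higher in CTL tumours on the CTL array (orange points) and the untreated array (blue points) of day 1, joined by a line, with the untreated arrays of days 3, 5 and 7 as blue ticks (log2 signal minus the 75th percentile of the array). Genes are ordered by their difference, from 1.85 for Tgtp1 to 0.65 for Socs1.

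Promoter sequences of 5 of these genes are shown because the genes were higher together and carry motif letters known for this pathway. They run 5′ to 3′ on the strand of the gene, from 250 bases before the annotated start to 50 bases after it, and come from RefSeq (GRCm38.p6). Capitals mark TTCNNNGAA, the letters of a GAS, and GAAANNGAAA, letters of an ISRE, on either strand. The windows are chr11:48992197-48992496 (minus strand) for Tgtp1, chr11:58199306-58199605 (plus strand) for Igtp, chr11:58214727-58215026 (plus strand) for Irgm2, chr3:142620413-142620712 (plus strand) for Gbp2 and chr11:53769764-53770063 (plus strand) for Irf1.
Tgtp1: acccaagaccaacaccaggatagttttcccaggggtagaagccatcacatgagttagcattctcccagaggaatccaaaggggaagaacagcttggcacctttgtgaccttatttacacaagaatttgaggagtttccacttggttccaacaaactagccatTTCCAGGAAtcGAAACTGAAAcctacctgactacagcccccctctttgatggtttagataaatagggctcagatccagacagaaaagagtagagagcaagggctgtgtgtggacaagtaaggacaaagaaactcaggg
Igtp: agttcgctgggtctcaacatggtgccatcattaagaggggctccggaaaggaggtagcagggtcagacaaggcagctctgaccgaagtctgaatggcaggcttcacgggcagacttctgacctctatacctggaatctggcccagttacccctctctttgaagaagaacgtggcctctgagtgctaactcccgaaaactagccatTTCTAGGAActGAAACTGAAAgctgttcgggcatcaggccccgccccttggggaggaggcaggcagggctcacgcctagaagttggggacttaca
Irgm2: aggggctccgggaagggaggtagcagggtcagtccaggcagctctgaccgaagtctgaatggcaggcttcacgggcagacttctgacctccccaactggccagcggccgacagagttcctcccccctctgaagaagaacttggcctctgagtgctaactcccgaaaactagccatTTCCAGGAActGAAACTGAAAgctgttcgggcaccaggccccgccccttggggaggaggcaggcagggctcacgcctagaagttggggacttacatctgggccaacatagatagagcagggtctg
Gbp2: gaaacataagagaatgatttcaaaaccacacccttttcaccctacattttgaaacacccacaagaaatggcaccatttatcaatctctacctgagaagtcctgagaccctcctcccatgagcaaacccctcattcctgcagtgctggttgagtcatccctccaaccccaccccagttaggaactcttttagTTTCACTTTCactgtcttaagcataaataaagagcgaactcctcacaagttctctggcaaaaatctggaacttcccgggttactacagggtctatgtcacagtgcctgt
Irf1: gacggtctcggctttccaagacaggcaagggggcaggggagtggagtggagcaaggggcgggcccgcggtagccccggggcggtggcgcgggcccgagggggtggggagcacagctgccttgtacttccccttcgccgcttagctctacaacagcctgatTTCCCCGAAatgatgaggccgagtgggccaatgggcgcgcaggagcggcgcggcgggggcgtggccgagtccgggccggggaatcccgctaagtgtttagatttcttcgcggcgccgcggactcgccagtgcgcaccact

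In Tgtp1, Igtp and Irgm2 a GAS match was followed by an ISRE match that began 11 bases after the start of the GAS match, with 2 bases between them. The windows of Igtp and Irgm2 share long runs of letters, and that of Tgtp1 shares the letters just before the GAS match. Matches in such related promoters are not independent occurrences, here or in the shares below. The GAS match began 88 bases before the start of Tgtp1, 45 before that of Igtp and 75 before that of Irgm2. Gbp2 had an ISRE match 59 bases before its start, and Irf1 a GAS match 90 bases before its start. Of the 18 genes at least 2-fold higher, 13 had an entry in the promoter table, and 9 of these 13 (69.2%) held either motif. Over all 31 measured genes it was 14 of 24 (58.3%), beside 11.4% of the 27025 promoters of the table and 9.45% of the 10490 promoters of genes measured on day 1. For GAS alone the shares were 37.5% of the 24, against 8.47% of all promoters, and for ISRE alone 41.7% against 3.49%. The list was drawn for a known response to IFN gamma, so shares above those of all promoters can follow from that choice. They say nothing of day 1. The matches of both motifs shared a base in 21 promoters of the table. The promoters of Acod1, Ifi47, Cxcl9 and Ubd held neither run of letters in this window, and neither did those of the 4 lower red-cell genes. A match is a run of letters and not a measured binding site.

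The immunity-related GTPases, which include Tgtp1 and attack the vacuoles of intracellular parasites, were among the highest. Tgtp1 (probe at chr11:48830094-48830153, mm8) had a level of 3.24 on the CTL array and 1.39 on the untreated array, a difference of 1.85 or 3.61-fold. On the untreated arrays of days 3, 5 and 7 its level was -0.19, 1.90 and -0.41, so the CTL day 1 level stood above all 4 untreated values. Igtp had levels of 3.62 and 2.10 on the CTL and untreated arrays, a difference of 1.52. The differences of the other members of this family were 1.55 for Iigp1, 1.41 for Ifi47, 1.35 for Irgm2 and 1.04 for Irgm1. These genes have close relatives, and a probe of a family member can bind RNA of another, so the members are not independent readings. A second probe for Tgtp1 differed by 1.48, and a second bright one for Irgm1 by 1.08.

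The guanylate binding proteins, GTPases induced by interferons that act against intracellular pathogens, spread more widely. Gbp2 had a level of 1.56 on the CTL array and -0.02 on the untreated array, a difference of 1.58. The difference was 1.58 for Gbp6, 1.41 for Gbp7, 0.67 for Gbp3 and 0.33 for Gbp5. Gbp4 had a level of -2.83 on the CTL array and was not well above background on the untreated array, which makes it at least 2.48-fold higher. This bound sets the CTL level against the higher of the gene's own untreated signal and the lowest signal well above background on that array, as do all "at least" values below. Cross-binding within this family was not tested either.

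Transcription factors of the pathway differed by less than these GTPases at their highest. Irf1 (probe at chr11:53620636-53620695, mm8) had a level of 3.51 on the CTL array and 2.47 on the untreated array, 2.05-fold higher. The untreated arrays of days 3, 5 and 7 gave 2.09, 2.55 and 2.06 for Irf1, so the CTL value lay above a narrow untreated range. Its day 1 difference ranged from 0.79 to 1.04 over the alternative processings, so it was not past 2-fold in all of them. Irf8, a factor of myeloid development and IFN gamma signalling, had levels of 0.92 and -0.30 on the CTL and untreated arrays, and Batf2 had 0.44 and -0.76. Socs1, the feedback inhibitor of the receptor kinases, differed by 0.65, with levels of 0.49 and -0.16.

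The remaining targets at least 2-fold higher had other functions. Serpina3g, a serine protease inhibitor, had a level of -0.49 on the CTL array and -2.30 on the untreated array, a difference of 1.80. Acod1, the enzyme that makes itaconate in macrophages, had -1.75 and -3.54, a difference of 1.79. Cxcl9, a chemokine that attracts T cells through Cxcr3, had -0.53 and -1.73, a difference of 1.20 (probe at chr5:93398365-93398424, mm8). Its level was -3.71, -2.35 and -3.37 in untreated tumours of days 3, 5 and 7, so the untreated day 1 array was already the highest of the 4 untreated arrays. The same held for 13 of the 31 genes, a count not made over all genes. Cxcl10, which binds the same receptor, differed by 0.18 only, and Cd274, which encodes the checkpoint ligand PD-L1, by 0.07. Ubd, a ubiquitin-like modifier, had a level of -3.01 on the CTL array and was not well above background on the untreated array, which makes it at least 2.12-fold higher.

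The ligand itself was dim. Ifng had a level of -2.86 on the CTL array and -4.44 on the untreated array, where it was not well above background, which makes it at least 2.43-fold higher (probe at chr10:117848778-117848837, mm8). A second Ifng probe was not well above background on either array. The receptor chains and kinases stood at the same level on both arrays: the difference was -0.04 for Ifngr1, 0.01 for Ifngr2, -0.01 for Jak1 and -0.02 for Jak2. Of the 19 measured ligands, receptors and feedback genes, Ifng was the 1 gene at least 2-fold higher, and the median difference of the list was 0.02. Genes known as targets of type I interferon gave smaller values than the IFN gamma list. Of 27 measured, none was at least 2-fold higher or lower, 22 were above 0, and the median difference was 0.14. The highest were Oasl2 with 0.68, an oligoadenylate synthetase-like gene, Ifit3 with 0.61, Rtp4 with 0.58 and the nucleic acid sensor gene Zbp1 with 0.57.

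In antigen presentation 1 gene was past 2-fold. Ciita, the master regulator of MHC class II transcription, had a level of -1.23 on the CTL array and -2.40 on the untreated array, a difference of 1.17 (probe at chr16:10439788-10439847, mm8). It was the 1 of 10 measured class II genes past 2-fold, and all 10 were above 0, with a median of 0.34. H2-Ab1, a class II beta chain, had levels of 1.85 and 1.45, and H2-Aa, its alpha chain partner, had -0.89 and -1.32. H2-DMa, which loads peptides onto class II molecules, differed by 0.56, and Cd74, the invariant chain, by 0.27. The untreated day 1 array was the highest of the 4 untreated arrays in 8 of the 10 genes. It was so too in 19 of 27 measured macrophage genes and 16 of 27 type I interferon genes, and in 0 of 34 G2/M genes. The share over all genes was not counted. Of 18 measured class I genes none was past 2-fold, 16 were above 0 and the median was 0.16. Psmb8 and Psmb9, subunits of the immunoproteasome, differed by 0.80 and 0.69, and Tap1, a peptide transporter, by 0.70. The class I heavy chain genes H2-K1 and H2-D1 differed by 0.04 and 0.06, and B2m, their light chain, by 0.03.

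Markers of T cells were near the background of the array on day 1. Of 31 listed genes 16 were measured, 13 above 0 and 3 below, with a median difference of 0.09. On the measured signals Zap70 differed by 0.75 and Ccr7 by 0.57, while 1 gene was past 2-fold higher and 1 past 2-fold lower. The higher gene was Tbx21, the T-bet transcription factor of type 1 T cells, with a level of -4.01 on the CTL array and -5.07 on the untreated array, where it was not well above background, so that it is only shown to be at least 1.09-fold higher. The lower gene was Cd247, whose chosen probe was well above background on the untreated day 1 array alone of the 14, which gives at least 3.77-fold. Cd3d, a signalling chain that pairs with the antigen receptor of T cells, had a level of -3.29 on both arrays, against 1.29 in CTL tumours of day 3. None of the 3 probes for Cd8a, the co-receptor of CTLs, was well above background on either array. Of 2 probes named Cd8b1, its partner, the brightest differed by -0.03 but lies on chromosome 5 in the files, while RefSeq places the gene on chromosome 6, so this is not shown to be a value of Cd8b1. The dimmer probe, on chromosome 6, had levels of -2.67 and -3.58 on the CTL and untreated arrays, a difference of 0.91. Of 13062 measured genes with a chromosome in both sources, 39 had their chosen probe on another chromosome. In RNA of whole tumours, fewer cells of a type and less RNA per cell cannot be told apart.

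Some probes for the T cell receptor beta chain gave larger values than the marker list. The brightest probe that the array names Tcrb-V13 (chr6:41477864-41477923, mm8) had a level of -0.75 on the CTL array and -2.52 on the untreated array, a difference of 1.77. The untreated arrays of days 3, 5 and 7 gave -3.30, -2.58 and -2.75, so the CTL value lay above all 4. A nearby probe of the same name, also well above background on both arrays, had levels of -1.78 and -3.04. A probe for a transcript of the same region, named only by its identifier, differed by 0.90. Of the other 4 probes named Tcrb-V13, a pair was well above background on the CTL array alone, at least 2.36-fold and at least 1.66-fold higher, and the remaining pair was not above background on either array. Probes named Tcrb-J were not well above background on either array. For the alpha chain, a probe named Tcra went the other way, with levels of -4.21 and -1.83 on the CTL and untreated arrays. It was well above background on the untreated array alone, at least 5.22-fold lower with CTL, and was detected on 3 of the 14 arrays. The other Tcra probes were not well above background on either array. The array's name Tcrb-V13 was kept because the reference table did not hold it, and the V segment of the transferred cells is not given in the sources used here.

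Effector genes of CTLs were dim too. Of 22 listed cytotoxic genes 10 were measured, with a median difference of 0.28, and Gzmc and Ifng were past 2-fold higher on the measured signals. Gzmc, a granzyme, had a level of -3.29 on the CTL array and was not well above background on the untreated array, so that it is only shown to be at least 1.80-fold higher. Nkg7, a granule membrane protein of T and NK cells, had levels of -2.80 and -3.54, a difference of 0.74. Gzmb, granzyme B, had -3.46 and -3.82, a difference of 0.36, and Prf1, perforin, was not well above background on either array. On day 3 the CTL array gave 2.76 for Gzmb and 1.96 for Nkg7, against -6.00 and -3.92 on the untreated array of that day.

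Other white cells showed few differences. Of 27 measured monocyte and macrophage genes, 1 was at least 2-fold higher and none lower, with a median of 0.13. That gene was Arg1, arginase 1, with a level of -2.20 on the CTL array and -3.25 on the untreated array, a difference of 1.06 (probe at chr10:24605804-24605863, mm8). The untreated arrays of days 5 and 7 had Arg1 levels of -1.37 and -2.07, so the CTL day 1 level lay within the untreated range. Csf1r, the receptor that maintains macrophages, went the other way with -1.26 and -0.50. Ccl17, a chemokine of dendritic cells, had levels of -2.39 and -3.44. Flt3, the receptor of dendritic cell precursors, was at least 1.25-fold higher, and Ccl22, detected on 2 of the 14 arrays, was at least 2.07-fold lower. Of the chemokine list, 2 of 21 measured genes were at least 2-fold higher, Cxcl9 and Ccl17, and Ccl22 was the 1 lower gene. Of the 3 measured neutrophil genes, S100a9, a calcium-binding protein of neutrophil granules, had levels of -3.05 and -2.26, and Stfa2l1, detected on 3 arrays, was at least 2.92-fold lower. In the natural killer cell list 2 of 12 genes were measured, with Klra8 at least 1.93-fold higher and Cd244a at least 2.04-fold lower.

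Red-cell genes made up the other group of bright genes that differed. Hba-a1, an alpha globin gene (probe at chr11:32183775-32183956, mm8), had a level of 4.25 on the CTL array and 5.88 on the untreated array, a difference of -1.63. Hba-a2, a nearly identical copy whose RNA its probe cannot be assumed to separate, had 4.17 and 5.79. Hbb-bt, a beta globin gene (probe at chr7:103687307-103687366, mm8), had 5.27 and 6.73, a difference of -1.46, and its 3 other probes differed by -1.62 to -1.38. Alas2, the heme synthesis enzyme of red-cell precursors (probe at chrX:145911166-145911225, mm8), had -0.49 and 1.00, a difference of -1.49. For each of these 4 genes the CTL day 1 level lay below all 4 untreated arrays of the study, as it did in 12.7% of all genes. The 4 genes were picked for a CTL level below the untreated day 1 array, so that share is not a like comparison for them. Of the 8 measured genes of the red-cell and platelet list these were the 4 at least 2-fold lower, and the median was -0.77. Slc4a1, the anion exchanger of the red-cell membrane, differed by 0.12, the platelet gene Pf4 by 0.04, and Klf1, a red-cell transcription factor, was at least 1.15-fold higher.

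The globin values did not follow a single course over the days. In CTL tumours Hba-a1 had levels of 4.25, 5.02, 4.17 and 4.61 on days 1, 3, 5 and 7, and in untreated tumours 5.88, 5.11, 7.29 and 8.66. The CTL values thus stayed within a narrow band, while the untreated values were lowest on day 3 and highest on day 7. The CTL and untreated arrays of day 3 were close, with a difference of -0.09, and those of days 5 and 7 differed by -3.12 and -4.05. How much blood each tumour piece held was not measured, and its part in these values was not tested.

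**Figure D4:**
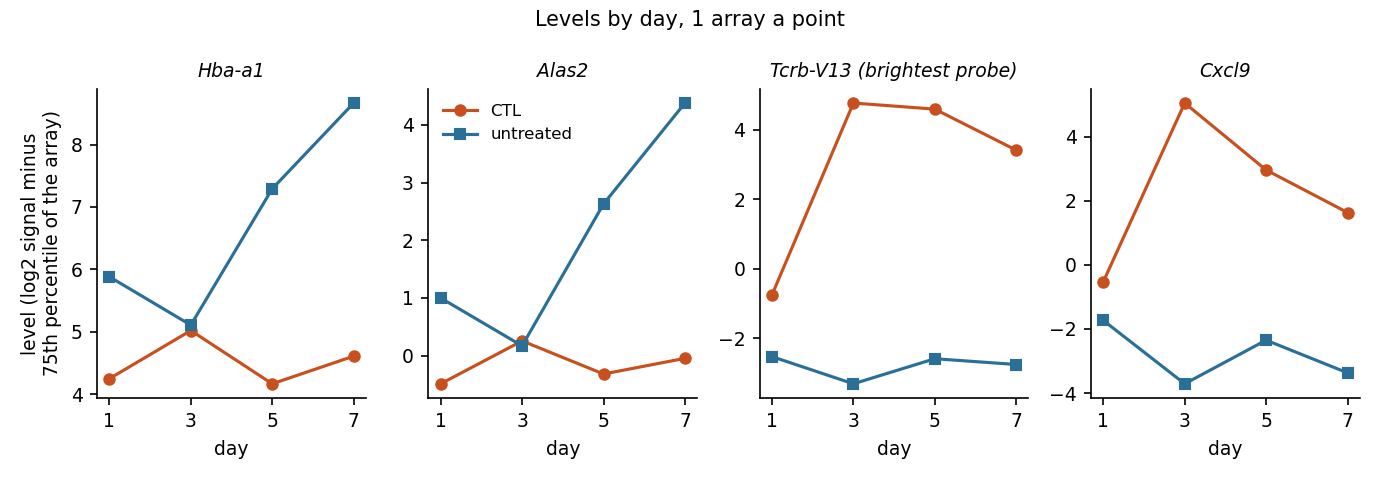
Levels of Hba-a1, Alas2, the brightest Tcrb-V13 probe and Cxcl9 on the CTL arrays (orange) and untreated arrays (blue) of days 1, 3, 5 and 7 (log2 signal minus the 75th percentile of the array, 1 array a point). The red-cell genes were lower in CTL tumours on days 1, 5 and 7 with nearly equal values on day 3, and Tcrb-V13 and Cxcl9 were higher in CTL tumours on every day, least on day 1.

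Lists of pigment-cell, cell cycle, stress and metabolic genes gave small values. RNA of whole tumours does not separate tumour cells from host cells. Of 19 measured melanocyte genes the median difference was -0.04, and Edn3, whose probe was well above background on 2 arrays, was the 1 gene past 2-fold. None of the 34 measured genes of G2/M and none of the 33 of G1/S and DNA replication was at least 2-fold higher or lower, with medians of 0.03 and -0.04. Orc1, a subunit of the origin recognition complex, stood apart in the DNA replication list at -0.65. No measured gene was past 2-fold in the lists of NF-kB and acute inflammation (median 0.11, 19 genes), immediate early genes (-0.01, 24), heat shock and unfolded protein response (-0.07, 21), glucocorticoid response (0.06, 12), cell death (0.06, 23), hypoxia and glycolysis (-0.05, 23), cholesterol and lipid synthesis (-0.03, 22) and endothelial cells (-0.03, 22). The 14 measured housekeeping genes had a median of -0.02. In 15 of the 23 hypoxia and glycolysis genes the CTL day 1 level lay below all 4 untreated arrays, as in 12.7% of all genes. Of 19 fibroblast genes, Mmp13, a collagenase, was at least 1.05-fold higher, and Mmp3, a matrix metalloproteinase, had levels of -2.22 and -3.17. Skeletal muscle genes went both ways: on the measured signals 4 of 14 were past 2-fold higher, Myh1, Myh2, Myh4 and Myl1, and Tnnt3 and Casq1 were past 2-fold lower. With bounds in place of measured folds, Myl1, at least 2.80-fold higher, and Tnnt3 remained past 2-fold, while Myh1, Myh2 and Myh4 were at least 1.29-fold, 1.64-fold and 1.01-fold higher and Casq1 at least 1.68-fold lower. Genes of the contractile apparatus that were detected on all 14 arrays, Tnnc2, Tnni2 and Acta1, differed by 0.99, 0.70 and 0.58. How much muscle each tumour piece held was not measured.

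Among genes with an ordinary symbol that were well above background on both arrays, the highest difference was that of Chn1, a GTPase-activating protein of neurons, with a level of -1.19 on the CTL array and -3.75 on the untreated array. Its levels in CTL tumours of days 3, 5 and 7 were -3.39, -5.03 and -4.08, so the CTL day 1 array stood alone, and a second Chn1 probe differed by 0.31. Prx, a myelin gene of the nerve and Schwann list, followed with 2.13, and the relaxin gene Rln1 with 2.06. Abcg1, a cholesterol exporter of macrophages, differed by 1.87, with levels of -1.06 and -2.93, and stayed higher in CTL tumours by 1.43, 2.37 and 2.27 on days 3, 5 and 7. Amy1, Rhox5, Olfr786 and Grik2 differed by 1.66 to 1.80. The lowest was Tesmin, a testis gene, with a level of -3.65 on the CTL array and -0.10 on the untreated array. All other 12 arrays gave Tesmin levels from -4.05 to -2.91, so the untreated day 1 array stood alone. Npbwr1, the muscle gene Tnnt3 and Shroom3 differed by -2.72, -2.68 and -2.61, and Lcn12, Bpifb6, Gpx7, Arhgef4, Speer5-ps1, Olfr738 and Stab2 by -1.94 to -1.69.

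Among genes well above background on 1 of both arrays only bounds can be given. Dact1 was at least 10.5-fold, Syce3 at least 10.4-fold, Dnajc5b at least 9.55-fold, Hc at least 9.14-fold and Fam3b at least 8.83-fold higher in CTL tumours. Ifi27l2b was at least 13.2-fold, Tbx18 at least 12.3-fold, Abcc6 at least 11.5-fold, Cdhr3 at least 9.41-fold and D7Ertd413e at least 9.04-fold lower. Dact1 and Tbx18, both developmental regulators, were detected on 1 and 2 of the 14 arrays, and their second probes were not above background on either day 1 array.

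The day 1 differences were then set beside those of later days, which come from other tumours and other arrays. In CTL against untreated tumours, 6.81%, 9.31% and 4.02% of genes were at least 2-fold higher on days 3, 5 and 7, and 6.23%, 7.38% and 4.03% at least 2-fold lower. These shares, and those below, are of genes measured on day 1. Genes well above background only on later days, such as Cxcl11, Cd8a and Prf1, are left out of them. Between CTL tumours with IgG and CTL tumours without antibody of the same day, 2.14%, 4.82% and 2.75% of genes were at least 2-fold apart either way. Of the 475 genes higher on day 1, 84 (17.7%) were also higher on day 3, 74 (15.6%) on day 5 and 61 (12.8%) on day 7, which are 7.78%, 5.02% and 9.59% of the genes higher on those days. Higher on all 4 days were 38 genes, 8% of the 475, and 3.02% of all genes were higher on the 3 later days. Of the 64 higher genes well above background on both day 1 arrays, 22 (34.4%) were higher on all 4 days. Of the 342 lower genes, 22 (6.43%) were lower on day 3 and 33 (9.65%) on each of days 5 and 7. Lower on all 4 days was 1 gene, 0.292% of the 342, and 0.966% of all genes were lower on the 3 later days.

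The genes higher on all 4 days were led by the IFN gamma list, with 18 of the 38. These counts again take the measured signals. Besides Ifng, Gzmc, Tbx21, Klra8, Mmp13 and Arg1, described above, 14 belonged to no list. Of these, 5 were well above background on both day 1 arrays, namely Abcg1, Tcrb-V13, Apol6, Slamf8 and Hk3, which were chosen after their values were seen. Apol6, an apolipoprotein L family gene, had levels of -1.08 and -2.53 on the CTL and untreated arrays of day 1, and was higher in CTL tumours by 10.21, 6.19 and 4.89 on days 3, 5 and 7. Slamf8, a surface receptor of myeloid cells, differed by 1.27 on day 1 and Hk3, a hexokinase of myeloid cells, by 1.12.

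Day 1 was the smallest of the 4 days for every measured IFN gamma response gene. The median difference of the 31 genes was 1.08 on day 1, 6.61 on day 3, 4.08 on day 5 and 3.69 on day 7. As folds these medians are 2.12 on day 1 and 97.5, 16.9 and 12.9 on the later days, and the day 1 difference was the smaller in 31 of 31 genes against each later day. The order of the genes was similar: across the 31 genes, Spearman's rho between the day 1 difference and that of day 3 was 0.79, of day 5 0.66 and of day 7 0.72, where genes of a pathway are not independent points. On the later days 31, 31 and 29 of these genes were at least 2-fold lower in CTL tumours with anti-IFNg than in CTL tumours with IgG, with medians of -4.60, -3.93 and -3.77, against 4.96%, 5.61% and 5.63% of all genes. No antibody array of day 1 was analysed here, so the values do not show whether the day 1 differences need IFN gamma.

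**Figure D5:**
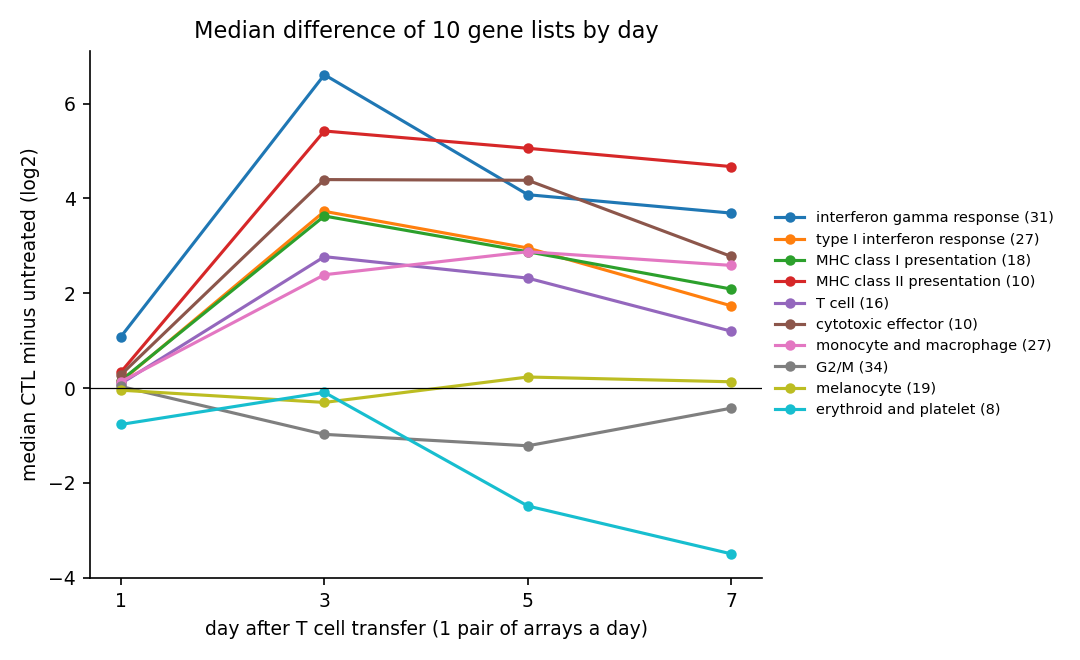
Median difference between CTL and untreated tumours (log2) of 10 gene lists on days 1, 3, 5 and 7, with the number of measured genes in brackets and 1 pair of arrays a day. On day 1 the IFN gamma response list is highest at 1.08 and the red-cell and platelet list lowest at -0.77, while the other 8 lists lie between -0.04 and 0.34.

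The difference between day 1 and the later days is the one comparison the arrays allow a test for. A limma model over all 14 arrays, with terms for the day, the arm and the day 1 CTL effect, left 6 residual degrees of freedom and took the day 1 pair to vary like the others. Of 16575 genes, 143 (0.863%) had a larger and 30 (0.181%) a smaller CTL effect on days 3, 5 and 7 than on day 1 after Benjamini-Hochberg adjustment at 0.05. Class II presentation held 8 of these among 11 tested genes, class I 7 of 19, macrophages 8 of 29 and T cells 5 of 26, and the IFN gamma list 3 of 34, Psmb8, Psmb9 and Ubd. No gene of the G2/M, G1/S or red-cell lists was among them. H2-Ab1 had an effect of 0.40 on day 1 and of 5.08 on the later days, a term of 4.69 ± 0.18 (SE, limma adjusted p = 7.4e-05). For H2-Aa the term was 4.96 ± 0.32 (SE, limma adjusted p = 0.00088), and for Cd3d 6.09 ± 1.06 (SE, limma adjusted p = 0.045). Cxcl9, with a term of 5.16 ± 1.44, did not pass (limma adjusted p = 0.17), and neither did Tgtp1 (4.08 ± 1.32, limma adjusted p = 0.22). On days 3, 5 and 7 the CTL difference was 8.77, 5.31 and 5.01 for Cxcl9 and 8.27, 4.24 and 5.30 for Tgtp1. Such a change over the later days enters the SE, so not passing does not show an effect as large on day 1.

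These counts changed with the arrays in the model. Each smaller set of arrays also left fewer than 6 residual degrees of freedom, and what each of these contributed was not tested. With only the 8 CTL and untreated arrays no gene passed in either direction with limma, and 1328 had an unadjusted p under 0.05. Leaving out day 3 gave 5 larger and 0 smaller terms, leaving out day 5 gave 4 and 0, and leaving out day 7 gave 248 and 50.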

How the data were processed

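Signals of single-colour arrays of pooled tumour RNA were, per the submitters' processing notes, read with Agilent Feature Extraction 9.5. The deposited scanner files give the authors' processed signal intensity and background flags for each spot, per the file headers. The authors' deposited table of log2 values was, for each array, the processed log2 signal shifted by a constant (Pearson r of 1, column medians of -3.43 and -3.47 on the CTL and untreated day 1 arrays), and it was used as an alternative. Here control and outlier spots were left out, spots of a probe were averaged, and log2 signals were set against each array's 75th percentile. Probes were named through their accessions or symbols in a RefSeq table, and 1 gene without a value on the untreated day 1 array (Il20rb) was left out. An item withheld from this text is not reported here. Probe coordinates are those of the files (mm8). A gene counted as higher or lower at 2-fold if well above background on the brighter array, with 1 array a group and no test. Later days were compared with day 1 in limma 3.58.1 (R 4.3.3), checked on simulated data; the model used genes well above background on at least 3 of 14 arrays. The genes named by rule were the 12 highest and 12 lowest above background on both arrays and the 5 highest bounds each way. To these came up to 4 members of each list, the 5 highest and lowest interaction terms and the genes chosen for the study. Further list members, and those said to be chosen after their values were seen, were named outside these rules. The comparison, the members and the 38 lists were chosen with earlier results of these data known. Alternatives covered normalization, background correction, probe choice, filters, fold thresholds and arrays in the model.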

Additional observations from a re-analysis of the deposited data

Results flagged for a closer look

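The values below are differences between effects of CTL transfer, on days 3, 5 and 7 minus day 1 on the log2 scale, that passed limma's interaction test with Benjamini-Hochberg adjustment over 16575 genes. A term over all 14 arrays tests the difference itself, but with only the CTL and untreated arrays no gene passed.

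The 5 highest terms were 7.16 for Ubd, 6.95 for Klrb1b, an inhibitory receptor of natural killer cells, 6.09 for Cd3d, 5.47 for Ifi206, an interferon-inducible gene, and 5.36 for Tcrb-V13. On day 1 Ubd was not well above background on the untreated array, and Ifi206 on neither array. Klrb1b was well above background on the untreated day 1 array alone of the pair, which makes it at least 3.37-fold lower there, and it was detected on 3 of the 14 arrays. Other T cell and effector genes had terms of 5.15 for Cd8a, 4.85 for Prf1, 4.42 for Nkg7 and 3.30 for Cd247. The probes of Cd8a, Prf1 and Cd247 in this model were not well above background on either day 1 array. A term that uses a value below background is not exact.

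In antigen presentation the terms were 4.96 for H2-Aa, 4.94 for H2-DMa, 4.41 for H2-DMb2, 4.55 for Psmb9 and 4.37 for Psmb8. The terms of the caspase genes Casp12 and Casp1 were 4.68 and 2.96, and that of Csf1r was 2.98, with effects of -0.76 on day 1 and 2.23 later.

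The 5 lowest terms were -3.79 for Dynlrb2, -3.28 for Wnt10a, -2.95 for Hes1, -2.85 for Qrich2 and -2.46 for Tenm4. Dynlrb2, Wnt10a, Hes1 and Qrich2 were well above background on the CTL day 1 array and not on the untreated day 1 array, which makes them at least 6.85-fold, 1.51-fold, 2.94-fold and 3.18-fold higher on day 1, so their terms are not exact either. Tenm4, a cell adhesion gene well above background on all 14 arrays, had an effect of 0.26 on day 1 and of -2.21 later. Sned1, an extracellular matrix gene, had a term of -2.45, with effects of -0.40 on day 1 and -2.84 later. Tesmin had a term of 3.96, which rests on the untreated day 1 array, and it was picked for its day 1 value.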

How the results depend on the processing

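Normexp background correction gave 121 genes higher on day 1 and 126 genes lower on day 1, a filter of both day 1 arrays 64 and 60, and a filter of at least 3 of 14 arrays, chosen after seeing the data, 249 and 143, with 1 of the 249 standing on another probe of its gene because the filter came before the choice of the brightest probe. The IFN gamma median of 1.08 was 1.04 with median centring, which moved the median of all genes by -0.05, 1.04 with quantile normalization, 0.78 with normexp, which left 11 genes past 2-fold, 0.92 without a filter and 1.04 with both arrays required. The T cell median was 0.046 with median centring and 0.029 with normexp, and 0.12 with Cd8b1 by its chromosome 6 probe, an alternative added after seeing the data. The T cell count of higher genes was 0 with quantile normalization, normexp and both arrays required, and that of lower genes 0 without a filter, with both arrays and with at least 3 arrays. The red-cell median was -0.82 with median centring, -0.68 with normexp, -0.17 without a filter and -1.46 with both arrays required. The larger and smaller interaction terms numbered 39 and 3 with normexp, 216 and 59 with a variance trend and robust fit, 3 and 1 with no replicate block (without the day, which was the slide, as a pairing term), 0 and 0 with the CTL and untreated arrays alone, and 4 to 248 and 0 to 50 with a day left out. The cause was not tested. The 61 genes past 2-fold checked here were those named by rule from day 1 values or chosen for the study. Of these, 61 kept the call with the authors' table, 60 with probe means and 60 with median centring. With quantile normalization 57 kept it, without a filter 57 and with normexp 31. Dact1 turned to -0.079 without a filter, where another probe stood for it. The 1 array per group, the 4 tumours pooled on each and probes near background limit every value of day 1.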

Other observations

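Skin, fat, nerve and coagulation genes gave few differences on day 1. Krt1, a keratin of the upper epidermis, had a level of -2.17 on the CTL array and -3.51 on the untreated array and was the 1 of 8 measured keratinocyte and hair genes past 2-fold, while Krt14 and Krt5, keratins of the basal layer, differed by 0.12 and 0.04. Of 9 measured adipocyte genes none was past 2-fold and 7 were below 0, with a median of -0.29. Among them Cfd, the complement protease adipsin, had levels of -1.86 and -1.07, and Fabp4, a fatty acid binding protein, 2.40 and 2.68. Of 9 nerve and Schwann genes, Prx was the higher one and Nefl, a neurofilament gene detected on 1 of the 14 arrays, was at least 1.66-fold lower, while the glial genes S100b and Sox10, which melanocytes also express, differed by 0.00 and -0.01. In the complement and coagulation list, Plau, the urokinase gene, detected on 1 array, was at least 2.09-fold lower, and F10, a coagulation factor, had levels of -1.54 and -2.25.

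The remaining lists held values close to those of all genes. The medians were 0.09 over 7 measured checkpoint genes, 0.06 over 17 cell cycle inhibitors and D cyclins, and 0.05 over 13 circadian clock genes, none past 2-fold. The 3 measured B cell genes had a median of 0.09 and the 3 mast cell and eosinophil genes one of -0.09, also with none past 2-fold. Of the 26 measured genes chosen for the study, 5 were at least 2-fold higher, Ifng, Cxcl9, Ciita, Ubd and Irf1, and none was lower, with a median of 0.04. With normexp background correction 1 of these genes, Irf1, was past 2-fold. That list was taken over from earlier work on these data and is not independent of them.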
